A study of Bos taurus with 12 samples.

Results

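The genes described here are the subunits and assembly factors of the proteasome that the array annotates, taken as every gene whose symbol in the probe-to-gene table starts with PSM, a letter from A to G and a digit. There were 47 such genes with 79 probes, out of 15216 named genes. 19 belonged to the core particle (PSMA and PSMB) and 19 to the regulatory particle and its chaperones (PSMC and PSMD). The activators (PSME) gave 3, the inhibitor (PSMF1) 1 and the assembly chaperones of the core (PSMG) 4. The last gene, PSMC3IP, matches the pattern by name only: it encodes a partner protein in meiotic recombination, so the label holds for 46 of the 47. PSMD13 and PSME3 were not analysed here.

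The cells were blastomeres from cattle embryos split at the 2-cell stage after development in vitro. Of each embryo, 1 blastomere was grown on alone until day 7 and its sister was frozen, and the frozen cells were pooled by what the grown sister did. BL pools hold cells whose sisters became blastocysts, 2CB pools hold cells whose sisters never divided again, and 8CB pools hold cells whose sisters divided and then stopped. The labels describe this last arrest as the 4-cell stage although they name it 8CB. Each class gave 3 independent pools of 15 blastomeres, RNA was amplified, and BL was hybridised with each arrested class on 6 two-colour arrays, 3 in each dye orientation. No genotype, breed or agent is stated for any class. In such pools, fewer contributing cells and less RNA per cell cannot be told apart.

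The proteasome degrades proteins that carry ubiquitin. Its core is a barrel of alpha and beta rings whose inner beta subunits cut peptide bonds, and the regulatory particle on either end recognises ubiquitin, removes it and unfolds the substrate with a ring of ATPases. In oocytes and early embryos of mammals it is known for clearing maternal proteins around fertilisation and the first divisions, and for ending each mitosis by destroying cyclin B and securin.

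All values are the deposited log ratios per array, taken as log2, with 1 value per gene as the mean of its probes. Ratios carry no expression level, so neither the abundance of a subunit nor the presence of the labelled cell type could be checked. Which class is the numerator is not settled by the labels, and values are therefore given by the positive or negative side of the deposited ratio, with no direction from BL to the arrested class. Swapped arrays were averaged as deposited, because deviations from the group mean ran the same way in 5 of 6 swapped pairs (median r = 0.38 across probes). The remaining pair was replicate 3 of BL against 8CB (r = -0.22). The ratios themselves agreed less evenly between swapped arrays. In replicates 1 to 3 they correlated at 0.26, 0.49 and 0.05 against 2CB and at -0.04, 0.56 and 0.11 against 8CB. Averaged replicates correlated at 0.39 to 0.53 across genes in BL against 2CB. In BL against 8CB, replicates 1 and 2 correlated at -0.20 and the other pairs at 0.33 and 0.41. Replicates 1 and 2 of that comparison thus disagreed, and these correlations do not show which of them is the odd one. Both comparisons use the BL class, so their values are set side by side and not counted as independent evidence. Nothing in the labels separates culture batches from pools, so p-values measure the spread between pools. That spread was estimated once per gene over both comparisons and moderated over all genes. A gene's SE is therefore the same in both comparisons, and is not the spread of the 3 pools in 1 of them.

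No proteasome gene passed an adjusted p under 0.05 over all 15216 genes in limma in either comparison, and neither did any other named gene (0% of genes called in each). An adjusted p under 0.10 was reached by PSMC3 and PSMD4 in BL against 2CB, where 0.789% of all genes reached it, and by no member in BL against 8CB, where 0.237% did. At an unadjusted p under 0.05 stood 6 of 47 members in BL against 2CB, a share of 12.8% that lies below the 18% of all named genes. The 7 of 47 members in BL against 8CB (14.9%) compare with 11% of all genes. Of these, 5 and 6 were on the positive side, where 8.54% and 5.61% of all genes lay with such a p. On the negative side, where 9.48% and 5.41% of all genes lay, there was 1 member in each comparison. Positive means were held by 25 of 47 members in each comparison, beside 54.2% and 52.6% of all genes. As a group, the members were centred near 0, with medians of 0.03 and 0.01 beside 0.01 and 0.004 for all named genes. Without replicate 3, 4 of 47 members in each comparison had an unadjusted p under 0.05, where 9.75% and 4.50% of all genes did. Without replicate 1 of BL against 8CB, 11 members had such a p against 2CB, where 19.7% of all genes did. Against 8CB, 6 members had it, where 13.8% of all genes did.

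**Figure D1:**
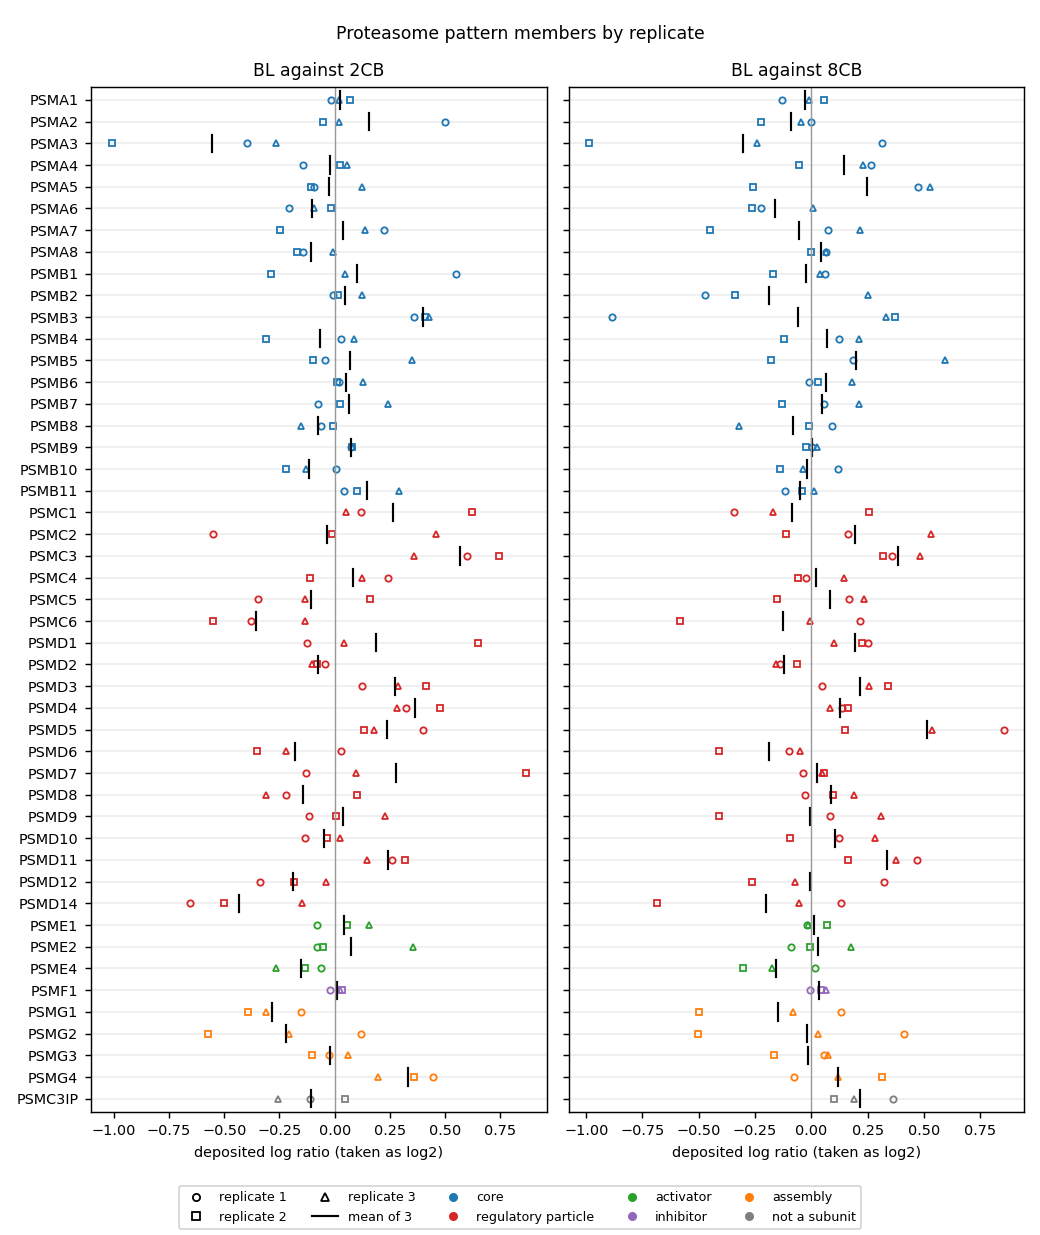
Deposited log ratios (taken as log2) of the 47 members in both comparisons, with open symbols for replicates 1 to 3 (each the average of 2 dye-swapped arrays), a bar for their mean and colours for the part of the proteasome. PSMC3, PSMD3, PSMD4, PSMD5 and PSMD11 have all 3 symbols right of 0 in both panels. All 3 symbols lie on one side for 8 of 19 core and 10 of 19 regulatory genes against 2CB (45% of all genes). Against 8CB they do for 1 of 19 and 8 of 19 (29.2% of all genes).

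In the core particle, 0 of 19 genes reached an unadjusted p under 0.05 in either comparison. Their medians were 0.04 in BL against 2CB and -0.02 in BL against 8CB. The 3 beta subunits that carry the active sites are described first. PSMB5, the chymotrypsin-like subunit, had replicate values of -0.04, -0.10 and 0.35 in BL against 2CB and 0.19, -0.18 and 0.59 in BL against 8CB. Its replicates lay on both sides of 0 in each comparison, with means of 0.07 ± 0.16 (SE, n = 3) and 0.20 ± 0.16.

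PSMB6, the caspase-like subunit, measured 0.02, 0.01 and 0.13 against 2CB and -0.01, 0.03 and 0.18 against 8CB. The trypsin-like subunit PSMB7 measured -0.08, 0.03 and 0.24 against 2CB and 0.05, -0.13 and 0.21 against 8CB. The 95% intervals are those of the mean deposited ratio and carry only the spread between pools. They do not bound how far the transcripts or subunits differ, since signal over background is unknown. Against 2CB they ran from -0.31 to 0.45 for PSMB5, -0.08 to 0.18 for PSMB6 and -0.15 to 0.27 for PSMB7. Those against 8CB ran from -0.18 to 0.58, -0.06 to 0.19 and -0.17 to 0.26. PSMB5 has the widest of these intervals and PSMB6 the narrowest.

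Among the other core subunits, PSMA3 and PSMB3 lay furthest from 0 against 2CB. PSMA3, an alpha ring subunit with a single probe, measured -0.40, -1.01 and -0.27 against 2CB, all negative and also negative in 6 of 6 arrays, with a mean of -0.56 ± 0.26 (adjusted p = 0.32 in limma). Against 8CB it measured 0.31, -0.99 and -0.24, with replicate 1 on the other side. PSMB3, a beta ring subunit without an active site, measured 0.36, 0.41 and 0.43 against 2CB, positive in 6 of 6 arrays. The same gene spread from -0.88 in replicate 1 to 0.37 in replicate 2 against 8CB, and its moderated SE of 0.24, shared by both comparisons, left it without a call. The other beta ring genes, PSMB1, PSMB2 and PSMB4, lay between -0.06 and 0.10 against 2CB and between -0.19 and 0.07 against 8CB. The mean of PSMB1 against 2CB joins probes at -0.28 and 0.49. Its higher probe read 1.38 in replicate 1 and -0.01 and 0.09 in the others. Among the remaining alpha ring genes, PSMA1, PSMA2, PSMA4, PSMA5, PSMA6 and PSMA7, means lay between -0.10 and 0.16 against 2CB and between -0.16 and 0.25 against 8CB.

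Subunits that replace others in particular tissues were also measured. PSMB8, PSMB9 and PSMB10 form the immunoproteasome, in which they take the places of the active beta subunits after interferon exposure. PSMB8 measured -0.06, -0.01 and -0.15 against 2CB and 0.09, -0.01 and -0.32 against 8CB. PSMB9 measured 0.07, 0.08 and 0.08 against 2CB, the closest replicates of the 47 members in that comparison, and 0.0029, -0.02 and 0.03 against 8CB. PSMB10 measured 0.01, -0.22 and -0.13 against 2CB and 0.12, -0.14 and -0.04 against 8CB. Their means lay between -0.11 and 0.08 against 2CB and between -0.08 and 0.0012 against 8CB, and the lowest adjusted p among them was 0.33 in limma. PSMA8, an alpha subunit known from testis in the mouse, measured -0.14, -0.17 and -0.01 against 2CB with a mean of -0.11 ± 0.05, and 0.06, -0.00027 and 0.06 against 8CB. PSMB11, the thymus beta subunit of the mouse, lay at 0.14 ± 0.06 and -0.05 ± 0.06. Markers of blood and immune cells had 1 of 11 genes at an unadjusted p under 0.05 against 2CB and 0 of 11 against 8CB, beside 18% and 11% of all genes. For sperm and testis markers the counts were 1 of 11 and 0 of 11, and for cumulus and granulosa markers 1 of 14 and 1 of 14. Without levels, no marker could be called absent, and the part of such cells in these ratios was not tested.

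Within the regulatory particle, 5 of 19 genes (26.3%) reached an unadjusted p under 0.05 in BL against 2CB and 6 of 19 (31.6%) in BL against 8CB, beside 18% and 11% of all genes. No test of this difference from the core was run. PSMC3, PSMD3, PSMD4 and PSMD11 were positive in both. PSMD14 was negative against 2CB, PSMD2 was negative against 8CB, and PSMD5 was positive against 8CB. The median of the 19 genes was 0.04 against 2CB and 0.08 against 8CB, with 10 and 12 genes on the positive side.

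PSMC3, 1 of the 6 ATPases that unfold substrates, had the largest ratio of the 47 genes against 2CB. Its replicates were 0.60, 0.75 and 0.36 against 2CB and 0.36, 0.32 and 0.48 against 8CB. Every replicate in both comparisons was positive, and so were the 12 single arrays, whose values ran from 0.24 to 0.87. Among all named genes, 2.68% kept one side in all 12 arrays, and PSMC3 was the single member to do so. Its mean was 0.57 ± 0.08 (SE, n = 3) against 2CB, a 1.48-fold difference with rank 53 of 15216 by p (adjusted p = 0.097 in limma). Against 8CB the mean was 0.39 ± 0.08, or 1.31-fold (adjusted p = 0.19 in limma). The 2 probes of the gene lay at 0.45 and 0.69 against 2CB and 0.28 and 0.49 against 8CB, on the same side.

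The other ATPases, which stand beside PSMC3 in the ring, lay on both sides of 0, and none reached an unadjusted p under 0.05. PSMC6 measured -0.38, -0.55 and -0.13 against 2CB, negative in 3 of 3 replicates, with a mean of -0.35 ± 0.16. Against 8CB it spread over both sides at 0.21, -0.59 and -0.01. PSMC1 measured 0.12, 0.62 and 0.05 against 2CB and -0.35, 0.26 and -0.17 against 8CB, and its positive mean against 2CB rested mainly on replicate 2. PSMC2 spread from -0.55 to 0.46 against 2CB. PSMC4 lay at 0.09 ± 0.08 and 0.02 ± 0.08, and PSMC5 at -0.11 ± 0.11 and 0.08 ± 0.11. Without PSMC3, the ring thus ranged from -0.35 to 0.26 against 2CB and from -0.13 to 0.19 against 8CB.

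The base of the particle also holds the large scaffold subunits and the receptors for ubiquitin. PSMD4, a stalk protein that binds ubiquitin chains, measured 0.32, 0.48 and 0.28 against 2CB and 0.14, 0.16 and 0.08 against 8CB. All 6 values were positive, and the ratio was larger against 2CB in each replicate number. Means were 0.36 ± 0.05 against 2CB, 1.28-fold with rank 54 by p (adjusted p = 0.097 in limma), and 0.13 ± 0.05 against 8CB (adjusted p = 0.43 in limma). These values average unequal probes: 1 of its 2 probes lay at 0.64 and the other at 0.08 against 2CB, and against 8CB they lay at 0.27 and -0.02.

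PSMD2, a scaffold that also docks ubiquitin-like domains, measured -0.04, -0.08 and -0.10 against 2CB and -0.14, -0.07 and -0.16 against 8CB. Its averaged replicates were negative in 6 of 6 cases. Against 2CB, however, 3 of 6 arrays were positive, with means of 0.08 with 2CB in Cy5 and -0.23 with BL in Cy5, and against 8CB 1 of 6 was. Its 3 probes spread from -0.29 to 0.19 and from -0.27 to 0.08. The mean against 8CB was -0.12 ± 0.04 (adjusted p = 0.35 in limma). PSMD1, the other large scaffold, measured -0.13, 0.65 and 0.04 against 2CB and 0.25, 0.22 and 0.10 against 8CB, where it was positive in 6 of 6 arrays. Its replicates against 2CB lay on both sides of 0, and neither mean (0.19 ± 0.14 and 0.19 ± 0.14) reached an unadjusted p under 0.05. The 2 probes of PSMD1 lay at 0.39 and -0.004 against 8CB, so its mean there rests on 1 probe.

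**Figure D2:**
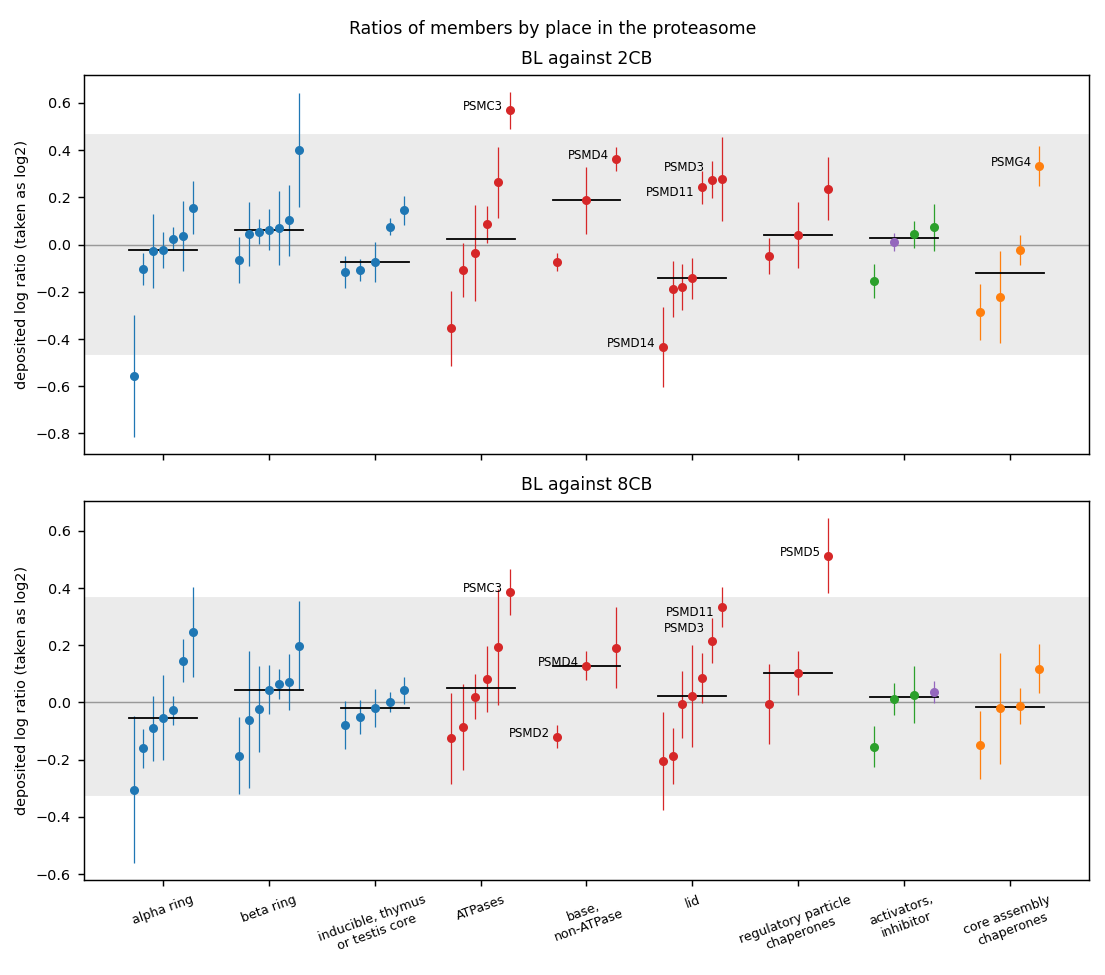
Mean deposited log ratio (taken as log2) of each member, grouped by its place in the proteasome, with bars of 1 SE (n = 3), a black line at the median of each group and names for members at an unadjusted p under 0.05. The grey band holds the central 95% of all 15216 named genes, and PSMC3 lies above it in both panels.

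The lid of the particle removes ubiquitin before the substrate enters the core, and its members went to both sides. PSMD14 is the metalloprotease that cuts the chain off. It measured -0.65, -0.50 and -0.15 against 2CB, negative in 6 of 6 arrays, with a mean of -0.43 ± 0.17, a 1.35-fold difference (adjusted p = 0.27 in limma). Against 8CB it measured 0.13, -0.69 and -0.05, so replicate 1 was positive there. PSMD7, its partner in the lid, spread from -0.13 to 0.87 against 2CB and lay at 0.02 ± 0.18 against 8CB, where its replicates were within 0.10 of each other.

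PSMD11, a lid scaffold that in human cells is known to limit how many full proteasomes assemble, measured 0.26, 0.32 and 0.15 against 2CB and 0.47, 0.16 and 0.38 against 8CB. Each replicate was positive, and so were 5 of 6 and 6 of 6 arrays. The means were 0.24 ± 0.07 (adjusted p = 0.18 in limma) and 0.33 ± 0.07 (adjusted p = 0.20 in limma), with both probes positive in both comparisons. Against 8CB these probes lay at 0.10 and 0.57, so the mean there rests mainly on the higher probe. PSMD3, another lid scaffold, measured 0.12, 0.41 and 0.29 against 2CB and 0.05, 0.34 and 0.26 against 8CB, with 5 of 6 arrays positive in each comparison. Its means were 0.28 ± 0.08 and 0.22 ± 0.08 (adjusted p = 0.17 and 0.40 in limma).

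The lid subunits PSMD6, PSMD8 and PSMD12 lay on the negative side against 2CB, at -0.18 ± 0.10, -0.14 ± 0.09 and -0.19 ± 0.12. Of these, PSMD12 was negative in 3 of 3 replicates against 2CB, and PSMD6 in 3 of 3 against 8CB (-0.10, -0.41 and -0.05). None reached an unadjusted p under 0.05. Over the 7 lid genes the median was -0.14 against 2CB and 0.02 against 8CB.

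Chaperones that build the ATPase ring and then leave it include PSMD5, PSMD9 and PSMD10. PSMD5 measured 0.40, 0.13 and 0.18 against 2CB and 0.85, 0.15 and 0.53 against 8CB, positive in each replicate. Its mean against 8CB, 0.51 ± 0.13 or 1.43-fold, was the largest of the 47 genes in that comparison (adjusted p = 0.25 in limma). Without replicate 1 that mean was 0.34. The dye orientations of PSMD5 differed: arrays with the arrested class in Cy5 gave 0.68, 0.32 and 0.38 against 2CB, and arrays with BL in Cy5 gave 0.13, -0.06 and -0.03. Against 8CB the same split was 1.10, 0.39 and 0.67 beside 0.60, -0.09 and 0.40. In each of the 6 pairs the array with the arrested class in Cy5 read higher. PSMD9 lay at 0.04 ± 0.14 and -0.01 ± 0.14, and PSMD10, which is also known as an oncoprotein in liver, at -0.05 ± 0.08 and 0.10 ± 0.08.

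**Figure D3:**
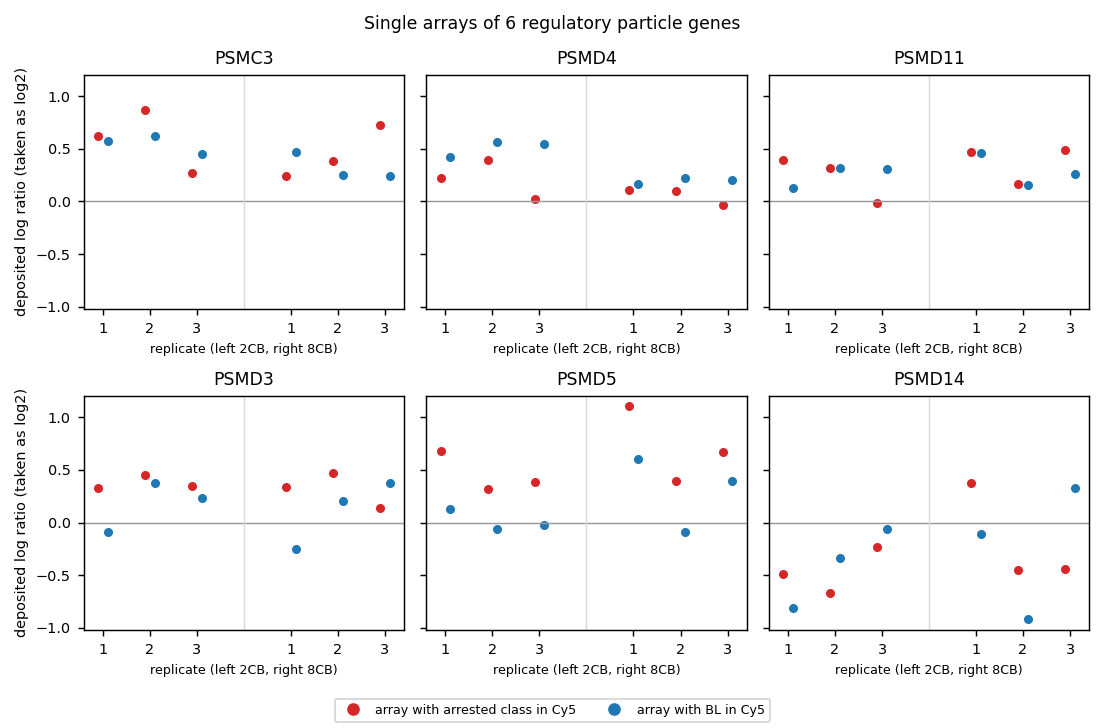
Deposited log ratio (taken as log2) on each of the 12 arrays for 6 genes of the regulatory particle, by replicate, with BL against 2CB left and BL against 8CB right of the line and colour for the dye orientation. PSMC3 is positive on all 12 arrays, from 0.24 to 0.87, while the orientations of PSMD5 are apart in each pair.

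Assembly of the core begins with pairs of chaperones that hold the alpha ring together. PSMG4 measured 0.44, 0.36 and 0.20 against 2CB, positive in 6 of 6 arrays, and -0.08, 0.31 and 0.12 against 8CB, where replicate 1 was negative. Its mean against 2CB was 0.33 ± 0.09 (adjusted p = 0.15 in limma), and both probes were positive. Its partner PSMG3 lay at -0.02 ± 0.06 and -0.01 ± 0.06. In the other pair, PSMG1 measured -0.15, -0.39 and -0.31 against 2CB, negative in 6 of 6 arrays and by each of 4 probes (-0.40 to -0.13), and 0.13, -0.50 and -0.08 against 8CB. PSMG2 spread from -0.57 to 0.12 against 2CB and from -0.51 to 0.41 against 8CB. Thus PSMG4 and PSMG1, members of different pairs, lay on opposite sides against 2CB, and PSMG1, at -0.28 ± 0.12, had an adjusted p of 0.29 in limma.

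No activator and no inhibitor reached an unadjusted p under 0.05. PSME1 and PSME2 form a cap that opens the core without ubiquitin, and lay at 0.04 ± 0.06 and 0.07 ± 0.10 against 2CB and at 0.01 ± 0.06 and 0.03 ± 0.10 against 8CB. PSME4, an activator linked to histone breakdown in mouse and yeast cells, measured -0.06, -0.14 and -0.26 against 2CB and 0.01, -0.30 and -0.18 against 8CB, with means of -0.15 ± 0.07 and -0.16 ± 0.07. These means rest mainly on 1 of its 3 probes, which lay at -0.40 against 2CB and -0.54 against 8CB. The others lay at -0.03 and -0.03 against 2CB and at -0.07 and 0.14 against 8CB. PSMF1, the inhibitor, lay at 0.01 ± 0.04 and 0.04 ± 0.04. Its 95% intervals ran from -0.08 to 0.11 and from -0.06 to 0.13, among the narrowest of the members.

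PSMC3IP, the recombination factor, measured -0.11, 0.05 and -0.26 against 2CB and 0.36, 0.10 and 0.19 against 8CB. It lay on both sides of 0 against 2CB and was positive in 3 of 3 replicates against 8CB, with a mean of 0.22 ± 0.08 (adjusted p = 0.38 in limma). Without it, the counts at an unadjusted p under 0.05 were 6 of 46 in each comparison.

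Core and regulatory particle were set side by side by replicate. Against 2CB the core medians were -0.0053, -0.02 and 0.08 in replicates 1 to 3 and those of the regulatory particle -0.12, 0.10 and 0.05. The regulatory median was the lower one in replicates 1 and 3 and the higher one in replicate 2. Against 8CB the core medians were 0.06, -0.13 and 0.06, and the regulatory medians 0.13, -0.06 and 0.15. Here the regulatory median was higher in 3 of 3 replicates, by 0.07, 0.07 and 0.08. This order depended on which core genes were counted. Over the 14 core genes without PSMA8 and the inducible and thymus subunits, the medians against 8CB were 0.06, -0.18 and 0.21. The regulatory median was then the lower one in replicate 3. The genes of the regulatory particle were also further from 0: the median absolute ratio was 0.19 against 2CB and 0.13 against 8CB, beside 0.07 and 0.06 in the core and 0.08 and 0.06 over all named genes. Their replicates were also further apart against 2CB, where the median SD between replicates was 0.19 in the regulatory particle, 0.12 in the core and 0.11 over all genes. Against 8CB those SDs were 0.19, 0.17 and 0.11.

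Against 8CB, the side of the core genes went with the replicate. In replicate 2, 3 of 19 core genes were positive (15.8%), while 12 of 19 were in replicate 1 and 14 of 19 in replicate 3. Over all named genes these shares were 53.2% in replicate 2, 49.6% in replicate 1 and 51.1% in replicate 3. Replicates 1 and 2 had opposite signs for 15 of 19 core genes (78.9%) and for 10 of 19 regulatory genes (52.6%), beside 56.1% of all genes. In all 3 replicates, one side was kept by 1 of 19 core genes and 8 of 19 regulatory genes (42.1%), where 29.2% of all genes did so. The corresponding counts against 2CB were 8 and 10 of 19, where 45% of all genes kept one side.

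At the level of single arrays, 7 of 47 members kept one side on all 6 arrays against 2CB (14.9%), where 15% of all genes did. They were PSMB3, PSMC3, PSMD4 and PSMG4 on the positive side and PSMA3, PSMD14 and PSMG1 on the negative side. Against 8CB, 3 of 47 did so, PSMC3, PSMD1 and PSMD11, all positive, where 7.12% of all genes did. The share of members was near that of all genes in both.

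The agreement between probes differed between members. Of 47 members, 27 had 1 probe and 20 had 2 to 6. Probes lay on both sides of 0 for 7 of the 20 against 2CB and for 12 against 8CB, with a median gap between the lowest and highest probe of 0.28 and 0.22. The widest gap, 1.10, belonged to PSMA2 against 2CB, where 1 of 6 probes lay at 1.00 and the other 5 within 0.10 of 0. That probe read 3.33 in replicate 1 and -0.24 and -0.10 in the others, so 1 replicate of 1 probe sets the mean of PSMA2. All probes were positive in both comparisons for PSMB6, PSMC3, PSMD11 and PSMG4, and all were negative for PSMB10 and PSMG1. The lower probe of PSMG4 against 8CB lay at 0.01. The probes of PSMC6 lay at -0.67 and -0.04 against 2CB, so its mean rests mainly on 1 probe. Probes of a gene share the RNA and are not replicates, and closely related copies of a subunit gene could not be told apart from these ratios.

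**Figure D4:**
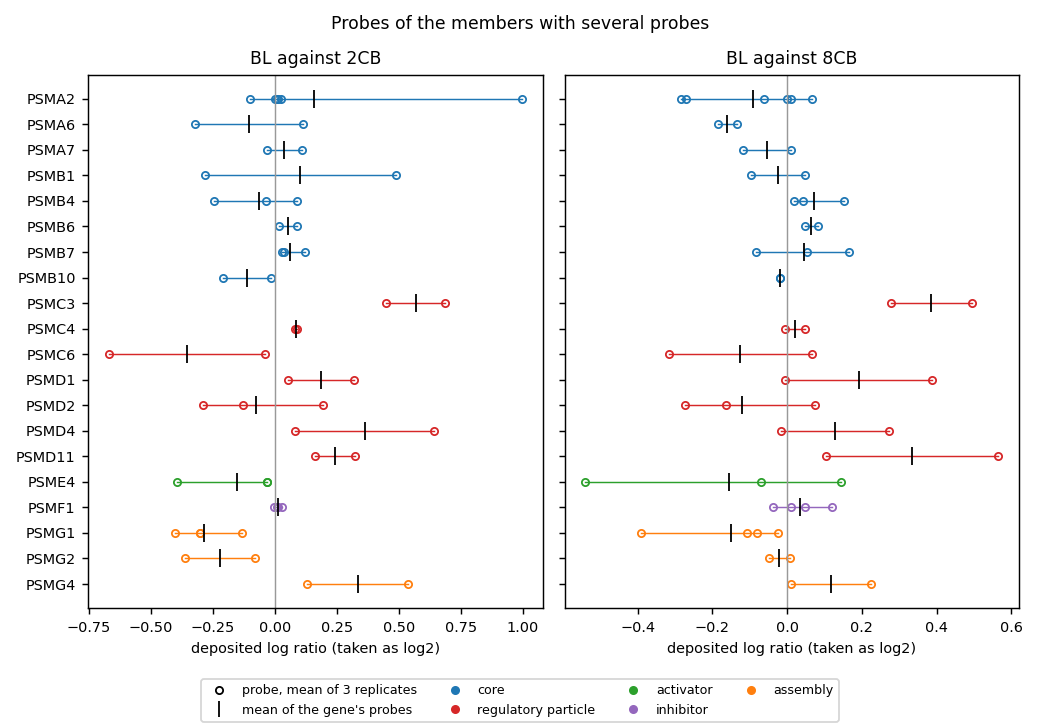
Deposited log ratio (taken as log2, mean of 3 replicates) of each probe for the 20 members with several probes, with a tick at the mean of the gene's probes and a line over their range. PSMB6, PSMC3, PSMD11 and PSMG4 have all probes right of 0 in both panels, and PSMB10 and PSMG1 have all of theirs left of 0. The probes of PSMA2 run from -0.10 to 1.00 against 2CB.

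The difference between arrested classes was tested indirectly through BL, since 2CB and 8CB shared no array, as the value against 2CB less the value against 8CB. No member passed an adjusted p under 0.05 in limma (0% of all named genes did), and 2 of 47 reached an unadjusted p under 0.05, where 4.25% of all genes did. These were PSMD4 at 0.23 ± 0.07 and PSMC3IP at -0.32 ± 0.11 (SE, n = 3; adjusted p = 0.93 for both). By replicate number, the difference was 0.19, 0.32 and 0.20 for PSMD4, and with that number as a fixed block it was 0.23 ± 0.06 (adjusted p = 0.47 in limma). The block left 5 members at an unadjusted p under 0.05, where 9.40% of all genes did. For PSMC3 the difference was 0.18 ± 0.11, from 0.24, 0.43 and -0.12 by replicate number. Neither gene passed the adjusted threshold for a difference between the classes, with or without the block. Without replicate 1, 0 members had an unadjusted p under 0.05 in this difference, and without replicate 2, 6 did, where 3.90% and 8.03% of all genes did.

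Of 42 genes listed as working with the proteasome, 33 were measured. At an unadjusted p under 0.05 stood 9 of 33 against 2CB (27.3%, 6 positive and 3 negative) and 5 of 33 against 8CB (15.2%, 3 positive and 2 negative), beside 18% and 11% of all genes. None passed an adjusted p under 0.05. ADRM1, the receptor for ubiquitin that docks on PSMD1 and recruits the deubiquitinase UCHL5, measured 0.79, 0.89 and 0.49 against 2CB, positive in 6 of 6 arrays. Its mean of 0.72 ± 0.11 was a 1.65-fold difference (adjusted p = 0.097 in limma). Against 8CB it measured -0.13, 0.30 and -0.08, on both sides of 0. UCHL5 itself lay at -0.16 ± 0.08 and -0.13 ± 0.08, and SEM1, the small lid subunit, at 0.07 ± 0.20 and 0.18 ± 0.20.

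VCP, the segregase that extracts ubiquitylated proteins for the proteasome, measured 0.27, 0.56 and 0.17 against 2CB and 0.19, 0.26 and 0.05 against 8CB, all positive. Its mean was 0.33 ± 0.08 against 2CB and 0.16 ± 0.08 against 8CB. Among its cofactors, UBXN1 lay at 0.14 ± 0.04 and 0.11 ± 0.04 and FAF1 at -0.28 ± 0.08 and 0.01 ± 0.08. NFYC, a subunit of the CCAAT-binding factor found at many proteasome promoters in human cells, measured 0.89, 1.29 and 0.70 against 2CB, with a mean of 0.96 ± 0.25. Against 8CB it measured -0.03, 1.28 and 0.94, with replicate 1 apart from the others. Of the other subunits of that factor, NFYB lay at -0.57 ± 0.29 and -0.49 ± 0.29, and NFYA at 0.0027 ± 0.04 and 0.08 ± 0.04. The value of NFYB against 2CB came from one dye orientation, with means of -0.01 with 2CB in Cy5 and -1.13 with BL in Cy5. NFE2L1, the transcription factor that raises proteasome genes when the proteasome is inhibited, lay at 0.14 ± 0.06 and 0.07 ± 0.06.

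On the negative side against 2CB were the shuttle factor UBQLN2 at -0.35 ± 0.11 and ZFAND5, which binds the proteasome and stimulates it, at -0.38 ± 0.11. Against 8CB, DDI2, the protease that activates NFE2L1, lay at -0.18 ± 0.06 and ZFAND2B at 0.16 ± 0.06. UBA1, the main enzyme that activates ubiquitin, lay on opposite sides in the comparisons: 0.25, 0.16 and 0.03 against 2CB and -0.13, -0.22 and -0.26 against 8CB. POMP, the chaperone that closes the maturing core, lay at 0.07 ± 0.11 and 0.15 ± 0.11.

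Transcripts that mark the oocyte and early embryo were set beside these values in the same libraries. Of 12 defining markers, 8 were positive and 1 negative at an unadjusted p under 0.05 against 2CB, beside 8.54% and 9.48% of all genes, with a median of 0.41, from -0.47 for OOEP to 0.98 for BMP15. Against 8CB, 1 of 12 reached an unadjusted p under 0.05, beside 11% of all genes, with a median of 0.19. By replicate, the marker median was 0.53, 0.46 and 0.22 against 2CB and -0.04, 0.38 and 0.26 against 8CB. PSMC3, PSMD4 and ADRM1 had positive ratios in each replicate against 2CB. In all, 11 of 47 members and 3689 of 15216 named genes did, while 10 members and 3165 named genes were negative in each replicate. The part of the marker transcripts in the ratios of PSMC3, PSMD4 and ADRM1 was not tested.

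Results that rest on how arrays and replicates were combined were as follows. The 12 arrays were also fitted singly with a dye term, and swapped arrays of a replicate formed a random block. In limma, that fit called 965 of 15216 named genes against 2CB, among them PSMC3, PSMD4 and PSMG4 (adjusted p = 0.0080, 0.0081 and 0.016). Against 8CB that block called 276 genes, PSMD5 among them (adjusted p = 0.028). This fit takes arrays as units and ties swapped arrays only by an estimated correlation of 0.32. Swapped arrays were read as repeats of the same pools, so these adjusted p-values do not measure the spread between pools alone. With the replicate number as a fixed block over both comparisons, 0 genes were called, and 16 of 47 members instead of 6 had an unadjusted p under 0.05 against 2CB, where 25.9% of all genes did. When every array was instead read as Cy5 over Cy3 and turned accordingly, PSMD5 was the single member called in both comparisons, at -0.22 ± 0.04 and -0.21 ± 0.04 for BL over the arrested class (adjusted p = 0.030 and 0.046 in limma). That reading called 907 and 447 of all named genes. PSMC3 under that reading lay at -0.02 and -0.06.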

How the data were processed

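The deposited values are log ratios of 12 two-colour Agilent arrays, prepared with limma per the submitters' processing notes. No source names the base of the deposited log ratios, which were treated as log2. The handling of background, normalization and filters was not given in the sources used here. Without scanner intensities, nothing is known of signal over background. The number of arrays limits the precision. Members, lists and tests were chosen with earlier results of these data known.

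The table has 43795 rows. After dropping 1 incomplete row and 1 row that is no numbered probe, 43793 probes remained, 21790 of them with 1 symbol. Probes were averaged to 15216 named genes, and all 47 members had current symbols in the RefSeq table. The 2 swapped arrays of a replicate number were averaged as deposited. limma 3.58.1 (R 4.3.3) fitted 1 coefficient per comparison (lmFit, eBayes), 2-sided, with Benjamini-Hochberg adjustment over all named genes and a threshold of 0.05. Python 3.11.15 and matplotlib 3.10.9 drew the figures. Simulated data with 15216 genes used each gene's residual SD over both comparisons, independent normal noise, and changes added to BL against 2CB. In them the fit called 63 of 100 genes changed by 0.5 and 90 of 100 changed by 1 on the log2 scale, with 10 unchanged genes called. The simulation left out deviations shared between replicates, so these counts are not the power in the real data.

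Same-numbered replicates of the 2 comparisons deviated together (r = 0.30, 0.39 and 0.35 across all probes), and values for unlike numbers are not given here. This pairing comes from the data and may hold because a number shares its BL pool; the labels do not state it. Members with an unadjusted p under 0.05 and one side in all 3 replicates, PSMC3, PSMD4 and PSMD11, the catalytic and immune beta subunits, PSMA8 and PSMC3IP were given by replicate. The values of other members, and of UCHL5, SEM1, NFE2L1, NFYA, NFYB and POMP, were picked for the text after they were seen. The alternatives tried were other blocks, signs, orientations, scalings, probe summaries and thresholds, separate fits, and leaving out replicates.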

Additional observations from a re-analysis of the deposited data

Results flagged for a closer look

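Of the genes listed as working with the proteasome, 2 had all 3 replicates on one side against 2CB and all 3 on the other side against 8CB, or 6.06% of the 33 measured, beside 1.98% of all named genes and 0 of the 47 proteasome genes. UBA1, the enzyme that activates ubiquitin, had a ratio against 2CB minus that against 8CB of 0.35 (adjusted p = 0.93 in limma over all named genes). Its positive side against 2CB came from one dye orientation, with means of 0.32 with 2CB in Cy5 and -0.03 with BL in Cy5. For DDI1, a shuttle protein related to DDI2, the same difference was 0.073, with means of 0.05 against 2CB and -0.03 against 8CB (adjusted p = 0.93 in limma). Both comparisons share the BL class. No group was searched for single outlying samples, since each holds 3.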

How the results depend on the processing

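In both comparisons, 0 members passed an adjusted p under 0.05, and this count held when arrays were centred or quantile-normalized, with robust moderation, separate fits, a filter on small ratios, the median of probes or single probes, and without any 1 replicate (0 to 0). Against 2CB it became 3 with the random replicate block, 3 with BL in Cy5 alone (1612 genes in all), 2 at a threshold of 0.10 and 1 with signs turned to Cy5 over Cy3. Against 8CB it became 1 with the random replicate block and 1 with the sign turned. The difference between comparisons gave 0 adjusted calls in each alternative, while its count at an unadjusted p under 0.05, 2, ran from 0 to 6 over left-out replicates and was 5 with the fixed replicate block (9.40% of all genes), 1 with either orientation alone (3.82% and 2.79%) and 0 with the sign turned (0.973%) or the filter on small ratios (3.04%). The fixed replicate block over both comparisons gave 0 and 0 calls, and 16 and 10 members at an unadjusted p under 0.05 in place of 6 and 7 (25.9% and 17.0% of all genes). That count was 11 against 2CB with the random replicate block, with BL in Cy5 alone, with the sign turned and with separate fits, where 21.5%, 30.8%, 28.3% and 19.7% of all genes had such a p. Against 8CB it was 4 with BL in Cy5 alone (21.9%) and 3 with the filter on small ratios (13.2%). The core median against 2CB was -0.016 with the sign turned and ran from -0.026 to 0.060 over left-out replicates, and the regulatory median against 8CB was -0.065 with the sign turned. With the sign turned, opposite values against 2CB were 0.16 for PSMB10, -0.016 for PSMB6, -0.023 for PSMB7, 0.16 for PSMB8, -0.060 for PSMB9, -0.020 for PSMC3, 0.028 for PSMD14, -0.10 for PSMD3 and -0.22 for PSMD5. Against 8CB they were -0.11 for PSMA8, 0.15 for PSMB10, -0.047 for PSMB5, -0.0079 for PSMB7, 0.12 for PSMB8, -0.031 for PSMB9, -0.065 for PSMC3, -0.12 for PSMC3IP, -0.044 for PSMD11, 0.034 for PSMD2, -0.10 for PSMD3 and -0.21 for PSMD5. This setting reverses the numerator on one orientation by construction. With BL in Cy5 alone, values turned to 0.042 for PSMB10 and 0.083 for PSMB8 against 2CB, and to -0.071 for PSMA8, 0.13 for PSMB10, 0.036 for PSMB8 and -0.030 for PSMB9 against 8CB. With the arrested class in Cy5 alone, they turned to 0.017 for PSMC3IP and 0.081 for PSMD2 against 2CB. Over left-out replicates, PSMB5 ran from -0.071 to 0.15 and PSMB7 from -0.026 to 0.13 against 2CB. Against 8CB, PSMB10 ran from -0.089 to 0.041, PSMB7 from -0.038 to 0.13, PSMB8 from -0.17 to 0.042, PSMB9 from -0.011 to 0.014 and PSMD14 from -0.37 to 0.038. Settings without replicate 1 or 3 of BL against 8CB were chosen after seeing the data. The causes were not tested. The deposited ratios give no signal over background, so its limit is unknown.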
